A study of Chlorella variabilis with 6 samples.

Results

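The 5 genes described here belong to fatty acid synthesis and desaturation in the unicellular green alga *Chlorella variabilis* NC64A. They are *MAT* (CHLNCDRAFT_140434, listed as malonyl-CoA:ACP transacylase), the ß-ketoacyl (ACP) reductase gene (CHLNCDRAFT_35597, abbreviated *KAR* here), *mtKAS* (CHLNCDRAFT_59740, listed as 3-oxoacyl-[acyl-carrier-protein] synthase), *FAD2* (CHLNCDRAFT_48812, listed as fatty acid desaturase) and *FAD3* (CHLNCDRAFT_33387, listed as omega-3 fatty acid desaturase). They were taken by locus tag from the 9625 genes of the count tables, and all 5 passed the filter on low counts. The study had picked them as differentially expressed between the same libraries, and they are the 5 genes to which its list of changed genes gives the term lipid biosynthesis proteins. The difference between the groups is therefore described for them without a test. No unchanged gene of fatty acid synthesis or desaturation was identified by name in the sources used here, so nothing can be read from these 5 about the share of the pathway that changed.

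Messenger RNA was sequenced from 3 WT and 3 LOG OX1 cultures at 14 dpi (days post inoculation), harvested 1 h before the dark phase. WT was the wild type NC64A strain. LOG OX1 was 1 transformed line of this strain that carried the coding region of *CvarLOG1*, a cytokinin-activating enzyme, behind the constitutive 35S promoter in the vector pMDC32, introduced by electroporation and selected on hygromycin. The vector and the selection marker thus differed between the groups along with *CvarLOG1*, and other lines were not sequenced. The 3 libraries of a group were biological replicates grown in the same medium under the same light and dark cycle as those of the other group. They were matched by day and hour of harvest, not by growth state. The paper describes slower growth and fewer cells in the transformed line at this age. It also reports a different spread of its cells over the cell-cycle phases at this hour. Growth and cell-cycle stage thus differed along with the genotype for every gene given here, and their share in the differences was not tested. In such bulk cultures, fewer cells of one stage and less RNA per cell cannot be told apart.

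Plants and green algae build fatty acids in the plastid on acyl carrier protein (ACP), and a smaller pathway of the same kind runs in mitochondria, where it supplies the precursor of lipoic acid. MAT moves the malonyl group from coenzyme A to ACP, the ketoacyl synthase (KAS) joins malonyl-ACP to the growing acyl chain, and KAR reduces the ketone that this leaves. The desaturases then act on finished chains in membrane lipids. In land plants, FAD2 turns oleic into linoleic acid, and FAD3 turns linoleic into linolenic acid.

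The libraries held between 10180885 and 12546100 counts, and 9101 genes passed edgeR's filter on low counts. *CvarLOG1* was 1.82-fold higher in LOG OX1, with no overlap between the libraries of the 2 groups (p = 0.1 by a two-sided exact permutation of the libraries, which is the lowest p that 3 against 3 can give). Between the groups, 28.6% of the genes tested were called, 14.0% higher and 14.6% lower in LOG OX1, where a call needed an adjusted p of 0.05 or less in edgeR's quasi-likelihood test together with a change of 1.5-fold or more. For 74.2% of the genes tested, all libraries of one group lay above all those of the other, with LOG OX1 above WT for 36.9% and below it for 37.4%. Among the 5 genes, MAT and KAR were higher and the other 3 lower in LOG OX1, all 5 past these thresholds and without overlap. Since the study chose the genes on this difference, nothing is read from those counts. The median log2 fold change was 0.00 over all genes tested. Over the 5 genes it was -0.72, the value of *FAD3*, which for the same reason is not read as a result.

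*MAT* stood at 435, 424 and 489 normalized counts in WT replicates 1, 2 and 3, and at 1167, 1143 and 1108 in LOG OX1 replicates 1, 2 and 3. Normalization divided each library by its effective size and multiplied it by the average effective size of all 6. The lowest LOG OX1 library lay 2.27-fold above the highest WT library, WT replicate 3. The means were 449 ± 34.7 (SD, n = 3) and 1139.6 ± 29.6 (SD, n = 3), a 2.53-fold higher level in LOG OX1 (log2 fold change 1.34, standard error 0.057). These values rest on 417 to 541 raw counts per WT library and 985 to 1241 per LOG OX1 library.

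*KAR* stood at 456, 442 and 497 normalized counts in the 3 WT libraries and at 1356, 1357 and 1215 in the 3 LOG OX1 libraries, in the order of the replicate numbers. WT replicate 3 was again the highest of its group and LOG OX1 replicate 3 the lowest, with a 2.45-fold step between them. The log2 fold change was 1.49 (standard error 0.059), or 2.82-fold. The ratio of *KAR* to *MAT* within a library, from which library size cancels, was between 1.02 and 1.05 in WT and between 1.10 and 1.19 in LOG OX1. The counts of the transferase and the reductase gene, not divided by gene length, thus lay close together in both groups. The ratios of the groups did not overlap, which was not tested. Single genes did not overlap in 74.2% of the genes tested, and the share for ratios of 2 genes was not computed. As the study chose both genes on their change, nothing is read from this.

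*mtKAS* showed the largest difference of the 5 genes. It stood at 13542, 12581 and 13017 normalized counts in WT replicates 1, 2 and 3, and at 1527, 1443 and 1342 in LOG OX1 replicates 1, 2 and 3. The step from the highest LOG OX1 to the lowest WT library was 8.24-fold, far wider than the spread inside either group, where the highest library exceeded the lowest by 1.08-fold in WT and 1.14-fold in LOG OX1. The group means were 13047 ± 481 (SD, n = 3) and 1437 ± 92.3 (SD, n = 3), a 9.08-fold lower level in LOG OX1 and a log2 fold change of -3.18 (standard error 0.051).

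In raw counts, *mtKAS* had 12980, 13215 and 14410 in the WT libraries and 1389, 1566 and 1193 in the LOG OX1 libraries. Of all counts of a library, 0.116 ± 0.00484% (SD, n = 3) fell on *mtKAS* in WT, against 0.0125 ± 0.000803% in LOG OX1. Its mean was 11610 normalized counts lower in LOG OX1, and 5 of the 9101 genes tested had a larger loss. Of the 315 genes tested with a WT mean of at least 5000 normalized counts, 4 had a lower log2 fold change. In that set 128 genes were called, beside 28.6% of all genes tested. Among all genes tested, 43 had a lower log2 fold change than *mtKAS*. The set was formed on the mean of WT, where *mtKAS* is high, and the study chose *mtKAS* on this difference. These ranks are therefore not read as a result.

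The name *mtKAS* stands for a mitochondrial ketoacyl synthase. The list of changed genes gives the locus the protein name 3-oxoacyl-[acyl-carrier-protein] synthase with the terms fatty acid biosynthesis and biotin metabolism, and no mitochondrial term, so the place where the enzyme works was not checked here. *KAR* carries the same pair of terms.

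**Figure D1:**
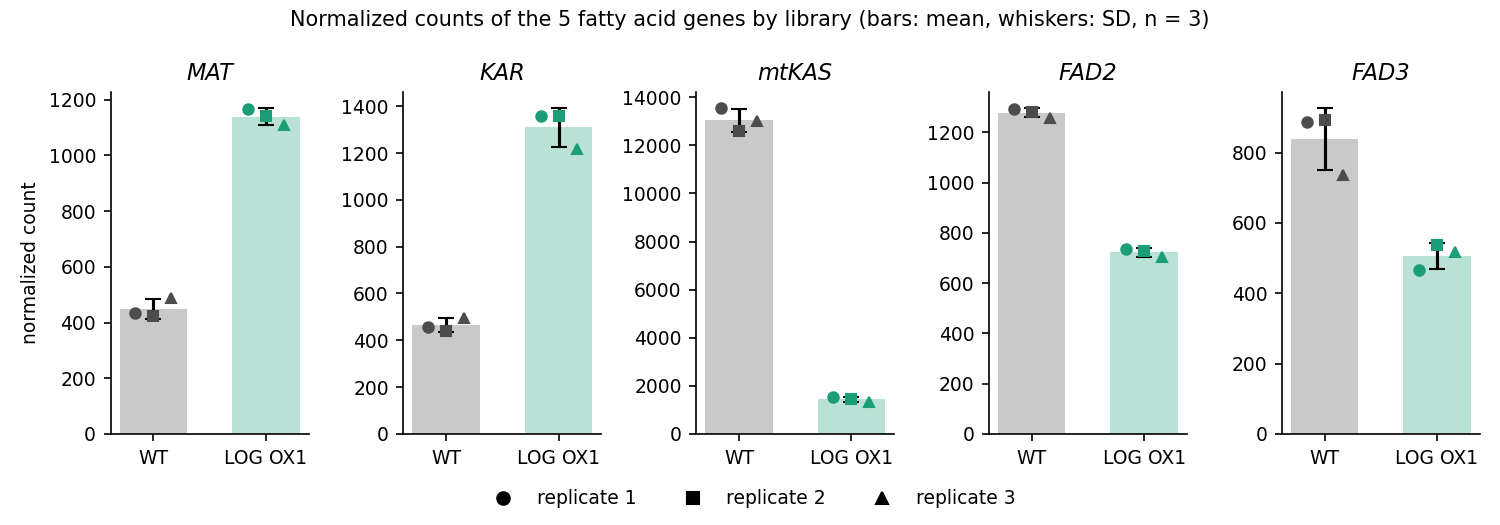
Normalized counts (y axis, starting at 0, with its own scale in each panel) of the 5 genes in WT and LOG OX1. Bars are group means, whiskers are SD (n = 3) and each point is 1 library, with a marker shape for each replicate number; in every panel the points of the 2 groups do not overlap, and the widest step is that of *mtKAS*, from 13047 to 1437.

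*FAD2* stood at 1294, 1282 and 1258 normalized counts in WT replicates 1, 2 and 3, and at 737, 729.6 and 703 in LOG OX1 replicates 1, 2 and 3. All 3 LOG OX1 libraries lay below all 3 WT libraries, with a 1.71-fold step between the nearest ones. The means were 1278 ± 18.0 (SD, n = 3) and 723 ± 17.9 (SD, n = 3), a 1.77-fold lower level in LOG OX1 (log2 fold change -0.82, standard error 0.044). The protein name in the list of changed genes, fatty acid desaturase, gives no position of the double bond, and the name *FAD2* is that of the paper.

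*FAD3* stood at 886, 892 and 737 normalized counts in WT and at 466, 536 and 518 in LOG OX1, in replicate order. WT replicate 3 was well below the other WT libraries, and LOG OX1 replicate 1 was the lowest of its group. The step between the nearest libraries of the groups was 1.37-fold, the narrowest of the 5 genes. The means were 838 ± 87.7 (SD, n = 3) and 507 ± 36.4 (SD, n = 3), a 1.65-fold lower level in LOG OX1 (log2 fold change -0.72, standard error 0.075). Of the 5 genes, *FAD3* lay nearest to the 1.5-fold threshold by which the study chose them.

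Both desaturase genes were lower in LOG OX1, but their ratio to each other did not separate the groups. *FAD2* divided by *FAD3* was 1.46, 1.44 and 1.71 in WT and 1.58, 1.36 and 1.36 in LOG OX1, so the ranges overlapped. The sum of the pair was 2116 ± 105 normalized counts in WT and 1230.0 ± 32.2 in LOG OX1 (SD over 3 libraries each). The ratio of *FAD2* to *MAT*, a desaturase against a synthesis gene, went from between 2.57 and 3.03 in WT to between 0.632 and 0.638 in LOG OX1. As the study chose *MAT* as higher and *FAD2* as lower in these libraries, this shift follows from the choice and is not read as a result.

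Summed over the 5 genes, a WT library held 16077 ± 500.2 normalized counts (SD, n = 3), and a LOG OX1 library held 5116 ± 200.2. The loss of *mtKAS*, 11610 normalized counts, exceeded that difference, since the other 4 genes were higher on balance. *mtKAS* supplied 81.1 ± 0.526% of the 5-gene counts in WT and 28.1 ± 0.859% in LOG OX1 (SD over 3 libraries each). Without it, the sum of the other 4 genes was 3030.4 ± 45.4 in WT and 3679 ± 118 in LOG OX1 (SD over 3 libraries each). These are shares of counts and not of transcripts, since the counts were not divided by gene length. Against *MAT*, *mtKAS* had 26.6 to 31.1 times as many counts in WT and 1.21 to 1.31 times as many in LOG OX1. The study chose these genes on their opposite changes, so nothing is read from this shift.

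**Figure D2:**
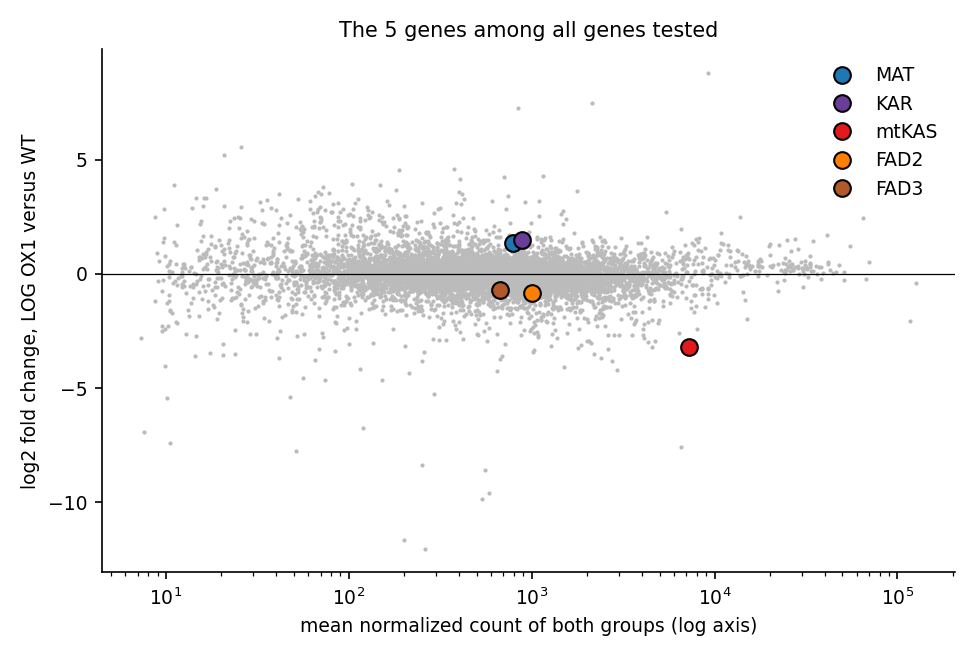
Log2 fold change of LOG OX1 versus WT (y axis) against the mean normalized count of both groups (x axis, log scale) for the 9101 genes tested (grey points). The 5 genes are the large coloured points: *MAT* and *KAR* lie above 0, *FAD2* and *FAD3* below 0 among many grey points, and *mtKAS* at -3.18 lies below nearly all genes of its abundance.

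The spread between replicate cultures is also given as a description, since it enters the adjusted p by which the study chose the genes. For each gene, the coefficient of variation (CV, the SD divided by the mean) was set beside that of the genes tested whose mean count in the same group was within 2-fold of its own. A CV over 3 cultures is imprecise, includes counting error and can rest on 1 library, so it was also computed with each library left out, which was added after the data were seen.

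*FAD3* had the highest CV of the 5 over all 3 libraries of each group, and in each group it fell when 1 particular library was left out. The same held for each of the other genes. Its CV was 10.5% in WT, higher than that of 97.2% of 3734 genes of similar count, whose median was 4.21%, but 0.503% without WT replicate 3. In LOG OX1 it was 7.18%, higher than that of 75.6% of such genes, but 2.50% without LOG OX1 replicate 1. The CV expected from counting error alone was 3.40% in WT and 4.52% in LOG OX1.

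*FAD2* had the lowest CV of the 5 over all 3 libraries of each group. It was 1.41% in WT and 2.48% in LOG OX1, in both groups below the 2.75% and 3.79% that counting error alone gives on average. Without replicate 3 it was 0.618% in WT and 0.755% in LOG OX1, and it reached at most 1.96% and 3.36% with another library left out.

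The synthesis genes lay between the desaturase genes when all libraries were used. The CV of *MAT* was 7.73% in WT and 2.60% in LOG OX1, against medians of 5.04% and 3.75% for genes of similar count, and it was 1.88% in WT and 1.46% in LOG OX1 without replicate 3. The CV of *KAR* was 6.15% in WT and 6.24% in LOG OX1, and 2.23% and 0.040% without replicate 3. That of *mtKAS* was 3.69% in WT, where its counts are high and counting error gives 0.86%, and 6.42% in LOG OX1, higher than that of 86.3% of genes of similar count, with 3.997% without LOG OX1 replicate 3. Without WT replicate 1 the *mtKAS* value in WT was 2.41%.

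**Figure D3:**
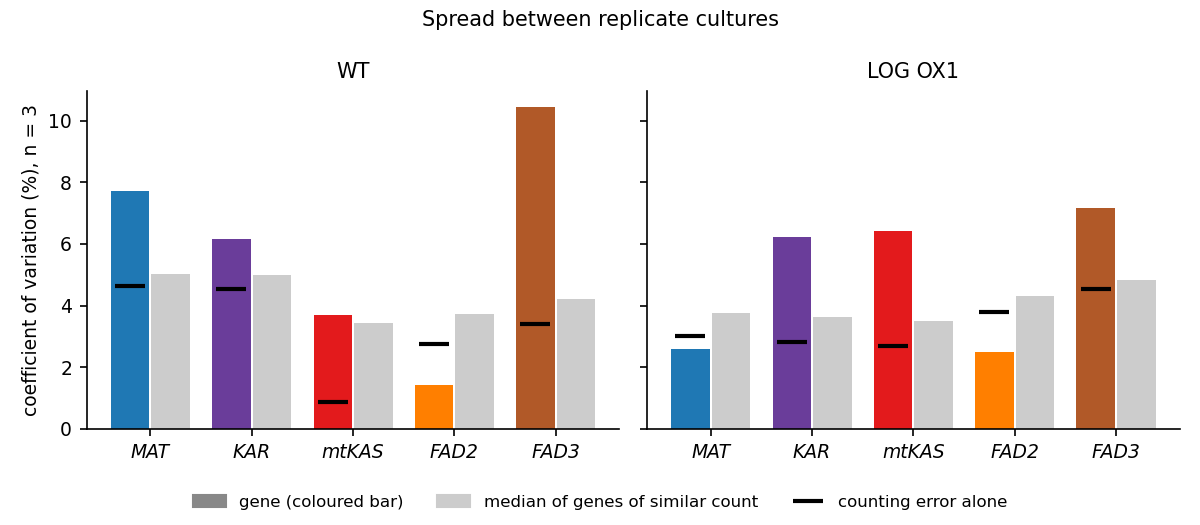
Coefficient of variation in percent (y axis) over the 3 replicate cultures for each of the 5 genes (coloured bars), with the median of genes of similar count (grey bars) and the value expected from counting error alone (black marks), in WT (left) and LOG OX1 (right). *FAD3* has the highest bar in both groups, 10.5% and 7.18%, each lower when 1 particular library is left out, and *FAD2* lies under its counting mark in both.

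The 5 genes kept their direction in the 14 alternative fits that gave a fold change. Upper-quartile factors moved all genes by 0.11 on the log2 scale, and the log2 fold changes of *MAT* and *mtKAS* with them, to 1.45 and -3.07. When 1 library at a time was dropped, *FAD3* ranged from -0.81 without WT replicate 3 to -0.66 without LOG OX1 replicate 1, and *mtKAS* from -3.22 to -3.13. Where a change of 2-fold or more was asked for, *FAD2* and *FAD3* fell short of the threshold, and 13.1% of the genes tested passed it. With glmTreat, which tests against 1.5-fold itself, 21.2% of the genes tested were called and *FAD3* was the 1 of the 5 that was not. As the study chose the 5 on this difference, their passing is not read as a result. Without a fold threshold 71.8% of the genes tested were called.

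**Figure D4:**
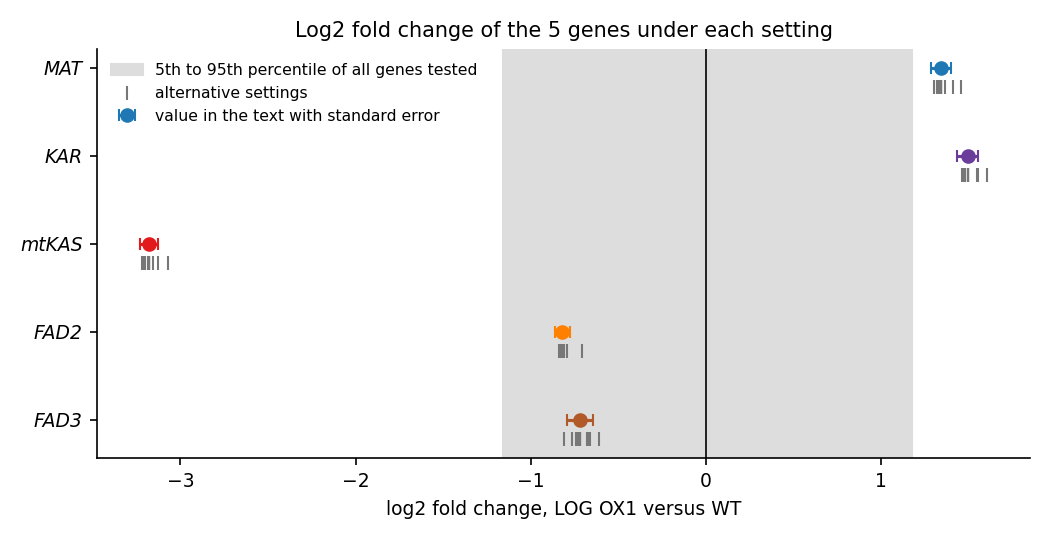
Log2 fold change of LOG OX1 versus WT (x axis) for the 5 genes. Points are the values given in the text with their standard errors, ticks under each point are the 14 alternative fits, and the grey band spans the 5th to the 95th percentile of all genes tested, from -1.16 to 1.18; *MAT*, *KAR* and *mtKAS* lie outside the band, and *FAD2* and *FAD3* inside it.

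The genes that lie next to these 5 in the genome were not chosen for their change and could be tested. The order of the reference annotation gave 9 adjacent genes, since *FAD3* is the first gene of its inferred scaffold. None of the 9 has a name in the sources used here, and 1 of them was called, against 28.6% of all genes tested. This was CHLNCDRAFT_134317 beside *KAR*, which stood at -0.59 on the log2 fold scale (standard error 0.071, edgeR adjusted p = 1.28e-06), opposite in sign to *KAR*. Its fold change lay at the threshold, and the call was lost without WT replicate 2 (log2 fold change -0.57) or either LOG OX1 replicate 2 or 3 (-0.56 in both fits), and also under upper-quartile factors (-0.48) and glmTreat.

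The gene on the other side of *KAR*, CHLNCDRAFT_134313, was 0.55 higher on the log2 scale (standard error 0.061) and stayed under 1.5-fold. Without WT replicate 1 or without LOG OX1 replicate 2 it was called, at 0.61 in both fits, and so it was under upper-quartile factors (0.66). The neighbours of *mtKAS*, CHLNCDRAFT_32265 and CHLNCDRAFT_137141, had log2 fold changes of -0.29 and -0.45, far from the -3.18 of *mtKAS*. The neighbours of *MAT*, CHLNCDRAFT_140433 and CHLNCDRAFT_34059, were at -0.22 and -0.30, opposite in sign to the gene between them. Of all 9101 genes tested, 4538 had a log2 fold change below 0, so nothing is read from the signs. The neighbour of *FAD3*, CHLNCDRAFT_142570, was at -0.22, and those of *FAD2*, CHLNCDRAFT_133886 and CHLNCDRAFT_133889, were at 0.10 and -0.23.

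A window of 5 genes on each side, set after the data were seen, held 45 genes of which 43 were tested, and the genes singled out from it were chosen by their values. In it, 3 genes were called higher and 6 lower, 20.9% of those tested against 28.6% of all genes. On one side of *MAT*, 3 genes were called lower: CHLNCDRAFT_19988 (log2 fold change -1.04, at a WT mean of only 27.3 normalized counts), CHLNCDRAFT_140437 (-1.45) and CHLNCDRAFT_11032 (-1.65). The widest change near *FAD3* was that of CHLNCDRAFT_142571, which rose from a mean of 348 to 1627 normalized counts, with a fitted log2 ratio of 2.23 (standard error 0.054) and an edgeR adjusted p of 1.57e-15.

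**Figure D5:**
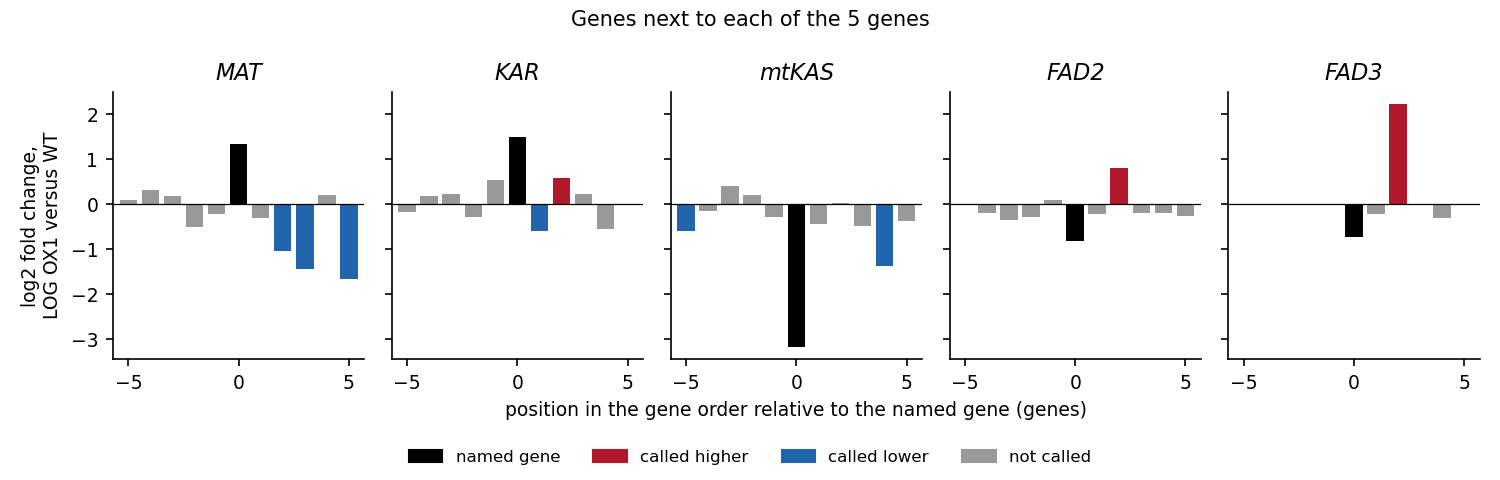
Log2 fold change of LOG OX1 versus WT (y axis) for the 5 genes (black bars, at position 0) and the tested genes up to 5 places to either side in the gene order (x axis). Red and blue bars were called higher and lower, and grey bars were not called; the black bar of *mtKAS* reaches -3.18 while its adjacent genes stand at -0.29 and -0.45.

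For each of the 5 genes, the genes with the most similar counts were sought by the Euclidean distance of log2(normalized count + 1) over the 6 libraries, which uses level and change together. The closest to *FAD2* was CHLNCDRAFT_142824, at a distance of 0.076, with means of 1249 in WT and 737 in LOG OX1. The closest to *MAT* was CHLNCDRAFT_57043 (distance 0.145), with 446 and 1131. *FAD3* was nearest to CHLNCDRAFT_138393 (distance 0.152), with 838 and 516.

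The genes nearest to *KAR* were CHLNCDRAFT_145552 (distance 0.204) and CHLNCDRAFT_24638 (distance 0.229), which is listed as the bifunctional purine biosynthesis protein PurH and had means of 432 and 1284. *mtKAS* had no close match. Its nearest gene, CHLNCDRAFT_143440, lay at a distance of 0.766, with 10928 normalized counts in WT and 1817 in LOG OX1 (log2 fold change -2.59). CHLNCDRAFT_138315 followed at a distance of 1.31, with 8394 and 1092 (log2 fold change -2.94). These genes have no name in the sources used here apart from PurH, and they were picked by the values themselves, so no test is given.

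Apart from the 5, 2 genes in the list of changed genes carry a glycerolipid or glycerophospholipid term. The digalactosyldiacylglycerol synthase gene CHLNCDRAFT_31413, whose enzyme makes a galactolipid of plastid membranes, stood at 1210.4 ± 57.4 normalized counts in WT and at 576 ± 28.1 in LOG OX1 (SD over 3 libraries each). Its log2 fold change was -1.07 (standard error 0.053). CHLNCDRAFT_19399, listed as an aminotransferase, was at 228 ± 8.44 and 108 ± 7.49 normalized counts, -1.08 on the log2 fold scale (standard error 0.10). The study chose both genes on these samples, so they too are given without a test.

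By its protein name in the same list, a glycerol-3-phosphate dehydrogenase gene, CHLNCDRAFT_30197, had 2902 ± 87.7 normalized counts in WT and 1259 ± 51.3 in LOG OX1 (SD, n = 3), or -1.20 on the log2 fold scale (standard error 0.045). This enzyme makes the glycerol backbone of glycerolipids. CHLNCDRAFT_21648, listed as acetoacetyl-CoA synthetase or long-chain fatty acid CoA ligase, which would activate free fatty acids, moved the other way, from 117 ± 20.5 to 413 ± 23.1 normalized counts, or 1.83 on the log2 fold scale (standard error 0.11).

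The count tables themselves show 2 genes under the symbols *GPD1* and *GPP1*, which in yeast stand for a dehydrogenase and a phosphatase of glycerol-3-phosphate metabolism. The sources used here give no protein name for either gene, so what they encode was not checked. Both genes were picked by name and not from the list of changed genes. *GPD1* had 685, 731 and 695 normalized counts in WT and 615, 620.0 and 591 in LOG OX1, and its log2 fold change was -0.21 (standard error 0.052) at an edgeR adjusted p of 0.00196. *GPP1* had 283, 247 and 274 in WT and 337, 342 and 341 in LOG OX1, and its log2 fold change was 0.35 (standard error 0.079) at an edgeR adjusted p of 0.000941. The groups did not overlap for either gene, and both changes stayed under 1.5-fold, so neither was called.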

How the data were processed

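Per the labels and the paper, the authors trimmed the reads with Trim Galore, mapped them onto the NC64A reference using HISAT2 and assigned them to genes using HTSeq. The deposited values are raw counts, with no normalization. Strand setting and annotation release are not given in the sources used here, so overlapping genes and near-identical copies have uncertain counts, and no coordinates or gene lengths are used. All 9625 identifiers matched RefSeq assembly v 1.0, used for gene order. Protein names come from the paper's supplementary list, whose columns of fold changes were not used.

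LOG OX1 was compared with WT in edgeR 4.0.16 (R 4.3.3): filterByExpr with a minimum count of 10, TMM factors, and the quasi-likelihood F test with condition as the only term, over 9101 genes with Benjamini-Hochberg adjustment. The prior count was 0.125, and standard errors were obtained as the log2 fold change over the root of F. The fits were also run on simulated data with 1 fixed dispersion for all genes and changes balanced in direction. That setting is simpler than these data, so nothing is read from that run about the calls here. Genes named are the 5, their adjacent genes, for each the nearest by counts (up to 3), called lipid genes, and others said to be picked by name or after values were seen. The members and lists were chosen with earlier results of these data known. Lists planned from protein sequences, motifs and product names were not analysed here. The comparison was repeated with DESeq2 1.42.0, glmTreat and the exact test of edgeR, other factors, filters and fold thresholds, the replicate number as a block, and each library left out.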

Additional observations from a re-analysis of the deposited data

How the results depend on the processing

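Upper-quartile factors moved the log2 fold changes to 1.45 for *MAT*, 1.61 for *KAR*, -3.07 for *mtKAS* and -0.71 for *FAD2*, a shift of 0.11 shared by all genes. Relative to the median gene, they were 1.34, 1.49, -3.18 and -0.82 as before. The share of higher genes among those called was 61.0% under these factors and 49.0% under TMM. *FAD3* moved by less than 1 SD of its replicates in all 14 fits. Without a fold threshold 6536 genes were called (3249 higher, 3287 lower), and with at least 2-fold 1193 (580 higher, 613 lower), since fewer or more genes pass by construction. With glmTreat 21.2% of all genes tested passed, and 4 of the 5 genes did, *FAD3* being the exception. The study chose the 5 on this difference, so nothing is read from their count.

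With each library left out, the log2 fold change was between 1.30 and 1.41 for *MAT*, 1.46 and 1.55 for *KAR*, -3.22 and -3.13 for *mtKAS*, and -0.83 and -0.80 for *FAD2*. Of the 9 adjacent genes, 8 were called with no fold threshold, where 71.8% of all genes were, 0 at 2-fold (13.1% of all genes) and 0 with glmTreat (21.2%). In edgeR's test 8 of the 9 had an unadjusted p under 0.05, as did at least 71.8% of all genes. Between 0 and 2 of the 9 were called with a library left out. CHLNCDRAFT_133886 beside *FAD2* changed sign in 1 fit, to -0.030 without WT replicate 1 (up to 0.20 with another library left out), and was not called in any of the fits with a fold threshold. The 2 other genes with a lipid term, chosen by the study on these samples, were called in all 17 settings. Nothing is read from this, and the main fit called 28.6% of all genes tested.

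No pairing of the cultures by replicate number was seen: deviations of same-numbered libraries correlated at -0.036, -0.0049 and -0.124. With 3 libraries in a group, these values cannot exclude a pairing. With the replicate block, 2603 genes were called, and the log2 fold changes were 1.34, 1.49, -3.18, -0.82 and -0.72 for *MAT*, *KAR*, *mtKAS*, *FAD2* and *FAD3*. No call among the 5 genes, their adjacent genes or the other genes with a lipid term changed under the block. Only 3 cultures of a group bear on each spread estimate, and counting error alone gives a CV of between 0.86% and 4.62% in WT and between 2.69% and 4.52% in LOG OX1 for the 5 genes.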
